A study of Mus musculus with 4 samples.

Results

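The genes described here are 31 markers of the blood vessel wall, chosen by symbol: 20 of endothelial cells and 11 of mural cells, out of 52022 annotated genes in the data. Endothelial cells line the vessel lumen, and mural cells, the pericytes of capillaries and the smooth muscle of larger vessels, wrap them from outside. Vascular endothelial growth factor made by adipocytes acts through receptors on the endothelium, angiopoietin acts through the Tie receptors, and endothelial PDGF-B recruits mural cells through PDGFRβ. Brown adipose tissue, which burns fuel to make heat, is among the most densely vascularised fat depots. All 31 genes were found by symbol, and all passed the filter on low counts that left 15643 genes for testing.

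The data were 4 RNA-seq libraries of brown adipose tissue from male mice fed ad libitum after 12 weeks on a diet of 60% fat. KO libraries (KO 1 and KO 2) came from mice lacking ATF4, a stress-response transcription factor, in thermogenic adipocytes, and WT libraries (WT 1 and WT 2) from their wild-type counterparts, so the diet was shared by all. The sources used here do not give the promoter that drove the deletion, the strain, the age or whether each library was a separate animal. If the libraries were not separate animals, the p-values measure only technical spread. Library names begin with S1 for KO 1 and WT 2 and with S2 for KO 2 and WT 1. The labels do not explain this prefix, and each prefix holds 1 library of each genotype.

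Total estimated counts ran from 25985367 in KO 1 to 34813870 in WT 2. Levels are given as CPM, estimated counts scaled to a common total after TMM scaling, which compares 1 gene between libraries, and levels between genes as TPM, which is also divided by transcript length. Atf4 (ENSMUSG00000042406, chr15:80255184-80257541, GRCm38) had 25.0 and 24.5 CPM in KO 1 and KO 2, against 29.2 in the library labelled WT 1 and 107 in the library labelled WT 2. The Atf4 level of the library labelled WT 1 thus lay close to the KO libraries, so this gene goes against the label. On the first principal component, the axis of largest spread over all genes tested (58.1%), WT 1 and WT 2 had 49.1 and 36.3. KO 1 and KO 2 had −58.1 and −27.2 there. Whether the label is right was not tested, and KO to WT values are also given without the library labelled WT 1. Ucp1, the heat-producing uncoupler that defines brown fat, had 7024 and 5989 CPM in KO 1 and KO 2 and 5563 and 6295 CPM in the libraries labelled WT 1 and WT 2. Of 12 brown adipocyte genes, 7 had a positive and 5 a negative log2 fold change between KO and WT. The values ran from −0.87 to 0.55, with a median of 0.05. In a fit with genotype and prefix as terms, 1 of the 12 was called, lower in KO, beside 0.473% of all genes. The 18 genes of a skeletal muscle list summed to 3577 and 3218 CPM in KO 1 and KO 2, against 41.6 and 47.5 CPM in the libraries labelled WT 1 and WT 2, with Myh2, Myh4, Pvalb and Mybpc2 at 0 in at least 1 WT library. In bulk tissue, fewer cells of a type and less RNA per cell cannot be told apart.

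Levels between genes spanned more than an order of magnitude in either class. Among endothelial genes, Egfl7, which encodes a secreted protein of the vessel matrix, had the highest mean TPM at 146, followed by the water channel Aqp1 at 141, the TGF-beta co-receptor Eng at 63.9, the junctional cadherin Cdh5 at 62.7 and the adhesion molecule Pecam1 at 53.0. The lowest was Plvap, which encodes the diaphragm protein of fenestrae and caveolae, at 3.74 TPM. Among mural genes, Rgs5, a G protein regulator of pericytes, led with a mean of 102 TPM. It was followed by the intermediate filament gene Des at 36.4, smooth muscle actin Acta2 at 23.6, the actin-binding transgelin gene Tagln at 17.2 and the potassium channel gene Kcnj8 at 12.5 TPM, and the contractile calponin gene Cnn1 was lowest at 1.14 TPM.

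**Figure D1:**
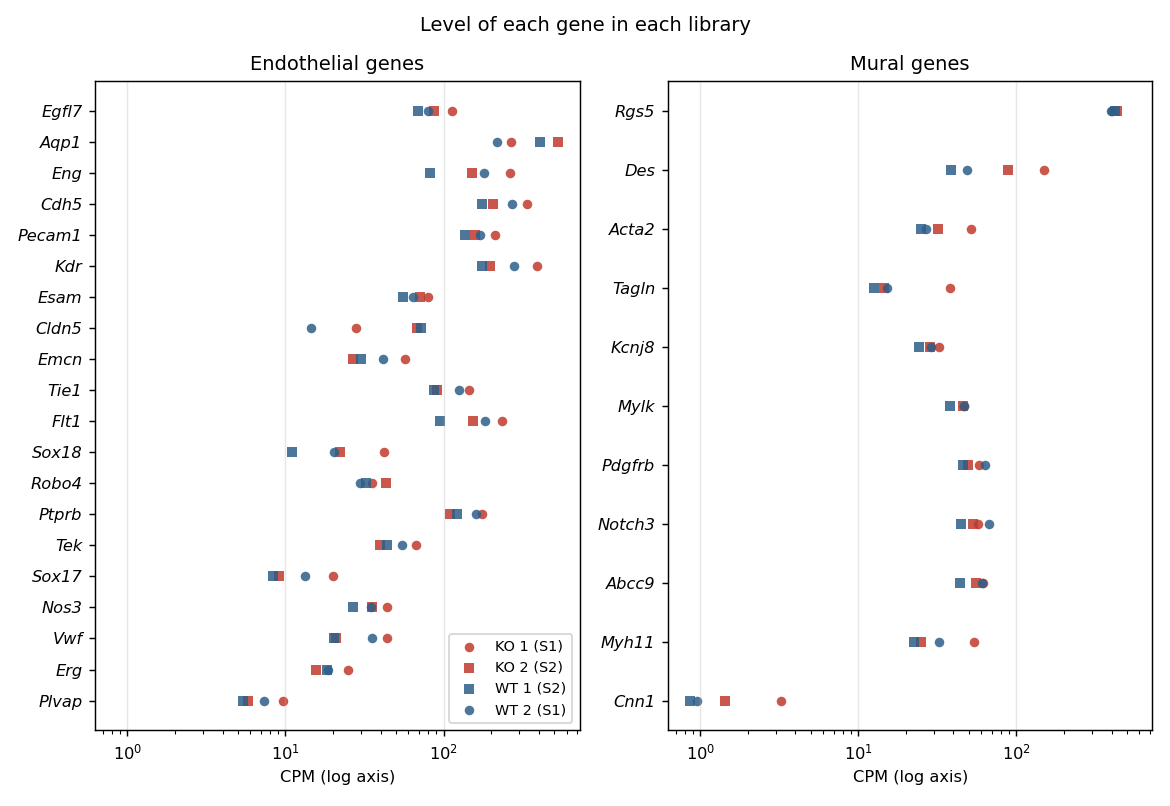
CPM of each of the 20 endothelial genes (left) and 11 mural genes (right) in each library, on a log axis, with genes ordered by mean TPM; 1 point is 1 library, red for KO, blue for WT, circles for prefix S1 and squares for prefix S2. The circles lie to the right of the squares for most genes, and to their left for Cldn5, Aqp1 and Rgs5.

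A single transcript, counting those with at least 20% of a gene's mean TPM, carried 15 of the 31 genes, and 16 had 2 or 3 such transcripts. Kdr-201, which encodes the full VEGF receptor of 1345 codons, held 99.8% of the Kdr TPM. Flt1, the other VEGF receptor gene, had 73.7% of its TPM in Flt1-202 (1333 codons) and 23.0% in the shorter Flt1-203 (688 codons), which had 6.75 and 6.10 TPM in KO 1 and KO 2 and 3.68 and 6.50 TPM in the libraries labelled WT 1 and WT 2. Short Flt1 forms are known as soluble decoys for VEGF, and whether Flt1-203 encodes one was not examined. Mylk, the myosin light chain kinase gene, had 44.5% of its TPM in the 159-codon Mylk-203 and 40.3% in the 1950-codon Mylk-201. The most abundant Egfl7 transcripts, Egfl7-214 and Egfl7-213, are annotated as retained introns and held 27.0% and 26.2% of its TPM. They had mean values of 39.5 and 38.2 TPM, and the place of Egfl7 above Aqp1 by mean TPM rests on them. Egfl7 also overlaps Agpat2 on the opposite strand, which had 28635 to 45963 counts. As the strand setting of the counting is not given, reads of the pair cannot be told apart if strand was not used.

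Between genotypes, no endothelial or mural gene passed the test with genotype as the sole term, but nearly all had a positive log2 fold change. Of all genes tested, 122 were called at an adjusted p under 0.05 in this fit of edgeR's quasi-likelihood test, which is 0.78% (0.767% higher and 0.0128% lower in KO). All 20 endothelial genes and 9 of 11 mural genes had a higher fitted mean in KO than in WT, with a median log2 fold change of 0.31 over endothelial and 0.21 over mural genes, beside 0.00 over all genes tested, of which 7876 were higher. Endothelial values ranged from 0.02 (SE 0.29) for Ptprb, the phosphatase that restrains Tie signalling, to 1.03 for Sox18. In a joint fit with genotype and prefix as terms, Sox18 and Des rose in KO. That fit called 2.05% of all genes, 1.57% higher and 0.473% lower, and rests on 1 residual degree of freedom.

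Sox18 is a SoxF transcription factor of endothelial identity and vessel growth (ENSMUSG00000046470, chr2:181669836-181671640). It had 41.9 and 22.2 CPM in KO 1 and KO 2, against 10.99 and 20.3 CPM in the libraries labelled WT 1 and WT 2. Both KO libraries lay above both WT libraries, with KO 2 close to WT 2. The joint fit of edgeR put Sox18 at 1.03 ± 0.15 (log2 fold change ± SE, adjusted p = 0.00286). The difference was 1.05 within S1 and 1.01 within S2. With genotype alone the log2 fold change was also 1.03, but with an SE of 0.41 and an unadjusted p of 0.0452 from edgeR, and without the library labelled WT 1 it was 0.66 (adjusted p = 1.00, edgeR), and without KO 1 it was 0.51.

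The other SoxF genes were read beside it. Sox17 had 20.0 and 9.05 CPM in KO 1 and KO 2 and 8.28 and 13.3 CPM in the libraries labelled WT 1 and WT 2, so the genotypes overlapped. Sox7, from a list of 18 further endothelial genes, had 40.2 and 24.3 CPM in KO 1 and KO 2, against 14.2 and 20.2 CPM in the libraries labelled WT 1 and WT 2. It rose in the joint fit of edgeR by 0.89 ± 0.15 in log2 units (± SE, adjusted p = 0.0104), and the fit with genotype alone gave 0.68 when the library labelled WT 1 was left out and 0.50 when KO 1 was (adjusted p = 1.00 and 0.973, edgeR). Sox7 was the 1 gene of that list called in the joint fit, which called 1.57% of all genes higher in KO. With genotype alone 17 of the 18 had a positive log2 fold change, beside 50.3% of all genes, with a median of 0.27.

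Des encodes desmin, the intermediate filament of pericytes, smooth muscle and skeletal muscle (ENSMUSG00000026208, chr1:75360329-75368579). It had 150 and 88.9 CPM in KO 1 and KO 2, against 38.8 and 48.5 CPM in the libraries labelled WT 1 and WT 2, and the genotypes did not overlap. The joint fit of edgeR gave 1.41 ± 0.17 (log2 fold change ± SE, adjusted p = 0.000661), and the fit with genotype alone gave 1.45 ± 0.30 (adjusted p = 0.239). Without the library labelled WT 1 the fit with genotype alone gave 1.30 (adjusted p = 0.441, edgeR). The difference was 1.63 within S1 and 1.19 within S2. The coding transcript Des-201 had 43.9 and 26.3 TPM in KO 1 and KO 2 and 11.4 and 15.6 TPM in the libraries labelled WT 1 and WT 2. Des moved with the skeletal muscle genes, and their part in the result was not tested. Of the smooth muscle list, Tpm2 (log2 fold change 4.03, adjusted p = 0.0028, edgeR) and Tpm1 (1.41, adjusted p = 0.0470, edgeR), tropomyosins that skeletal muscle also makes, rose in KO with genotype alone; the Tpm1 call was lost without the library labelled WT 1 (adjusted p = 0.151) and without WT 2 (adjusted p = 0.254).

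Other contractile genes were highest in KO 1. Acta2 had 51.8 and 32.0 CPM in KO 1 and KO 2, against 24.8 and 26.8 CPM in the libraries labelled WT 1 and WT 2, and the joint fit gave 0.66 (SE 0.17, adjusted p = 0.124, edgeR). Actin genes share stretches of similar coding sequence. Skeletal actin Acta1 had 664 and 455 CPM in KO 1 and KO 2. It had 0.223 and 0.299 CPM in the libraries labelled WT 1 and WT 2. Reads of Acta2 and Acta1 may have been split between them, and the Acta2 level is uncertain, chiefly in KO, where Acta1 was high. Tagln had 38.0 and 14.6 CPM in KO 1 and KO 2 and 12.6 and 15.1 CPM in the libraries labelled WT 1 and WT 2. KO 2 lay within the WT libraries, so the genotypes overlapped, and the joint fit gave 0.79 (adjusted p = 0.186, edgeR). Cnn1 had 3.24 and 1.44 CPM in KO 1 and KO 2, against 0.860 and 0.953 CPM in the libraries labelled WT 1 and WT 2, with 1.28 (SE 0.39, adjusted p = 0.204, edgeR) in the joint fit. Myh11, the smooth muscle myosin heavy chain gene, had 54.3 and 24.8 CPM in KO 1 and KO 2 and 22.5 and 32.4 CPM in the libraries labelled WT 1 and WT 2, which overlapped. With genotype alone these log2 fold changes were smaller without KO 1: Acta2 had 0.31 against 0.70 with all libraries, Tagln 0.08 against 0.92, Cnn1 0.67 against 1.36 and Myh11 −0.14 against 0.52. Without the library labelled WT 1 they were 0.64 for Acta2, 0.80 for Tagln, 1.29 for Cnn1 and 0.29 for Myh11.

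Rgs5, Kcnj8, Abcc9, Pdgfrb, Notch3 and Mylk were not called between genotypes, and all of them but Kcnj8 had log2 fold changes smaller than their SE. Rgs5 had 403 and 436 CPM in KO 1 and KO 2 and 424 and 395 CPM in the libraries labelled WT 1 and WT 2, a log2 fold change of 0.04 (SE 0.20). Kcnj8 had 32.6 and 28.6 CPM in KO 1 and KO 2 and 24.2 and 28.7 CPM in the libraries labelled WT 1 and WT 2, which overlapped (0.21, SE 0.18). Its partner Abcc9, the sulfonylurea receptor subunit of the same channel, had a log2 fold change of 0.15 (SE 0.21). The values were −0.02 (SE 0.22) for Pdgfrb, the receptor for PDGF-B, −0.02 (SE 0.24) for the Notch receptor gene Notch3 and 0.13 (SE 0.18) for Mylk, all with genotype alone. None of the 12 genes of a further pericyte list was called, and their median was −0.19. Steap4, a metalloreductase gene with the smallest p of that list, had 63.7 and 74.6 CPM in KO 1 and KO 2 and 87.3 and 121 CPM in the libraries labelled WT 1 and WT 2 (joint fit −0.58, adjusted p = 0.258, edgeR).

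Counts of genes whose genotypes did not overlap were 5 of 20 endothelial genes (Egfl7, Esam, Robo4, Sox18 and Nos3) and 3 of 11 mural genes (Acta2, Cnn1 and Des), all higher in KO. Among all genes tested, the genotypes did not overlap for 26.3%, 13.2% higher and 13.1% lower in KO. Egfl7 had 113 and 86.7 CPM in KO 1 and KO 2, against 68.6 and 79.8 CPM in the libraries labelled WT 1 and WT 2 (log2 fold change 0.43, SE 0.21). Nos3, the endothelial nitric oxide synthase gene, had 44.0 and 35.4 CPM in KO 1 and KO 2, against 26.8 and 34.7 CPM in the libraries labelled WT 1 and WT 2. Esam, a tight junction adhesion gene, and Robo4, a guidance receptor gene, had log2 fold changes of 0.34 (SE 0.18) and 0.34 (SE 0.18). None of these genes except Sox18 and Des passed in the joint fit. Eng, whose genotypes overlapped, had 265 and 152 CPM in KO 1 and KO 2 and 82.7 and 180 CPM in the libraries labelled WT 1 and WT 2, with the smallest adjusted p among endothelial genes after Sox18 (0.72, SE 0.17, adjusted p = 0.0682, edgeR joint fit). With genotype alone Eng had a log2 fold change of 0.67, against 0.21 without the library labelled WT 1, 0.22 without KO 1, 1.00 without KO 2 and 1.33 without WT 2. Egfl7 had 0.23 without KO 1 and 0.32 without the library labelled WT 1, and Nos3, at 0.37 with all libraries, had 0.21 and 0.19.

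The KO to WT medians moved when single libraries were left out. The endothelial median was 0.12 without the library labelled WT 1 and −0.03 without KO 1, and the mural median was 0.09 without the library labelled WT 1 and 0.10 without KO 1. Within S1 the endothelial and mural medians were 0.35 and 0.18, and within S2 they were 0.19 and 0.26. A KO to WT difference above 0 in both prefixes was present for 15 of 20 endothelial and 9 of 11 mural genes, beside 25.6% of all genes tested. Both classes contain genes that were high in KO 1, the library with 2028 CPM over a red blood cell list and 110 CPM over a macrophage list, against 908 to 1131 CPM and 284 to 410 CPM in the other libraries, and the part of these cells in the result was not tested. A fibroblast list summed to 445 and 676 CPM in KO 1 and KO 2, against 742 and 1071 CPM in the libraries labelled WT 1 and WT 2, and a Schwann cell list to 81.2 to 88.1 CPM in all libraries.

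**Figure D2:**
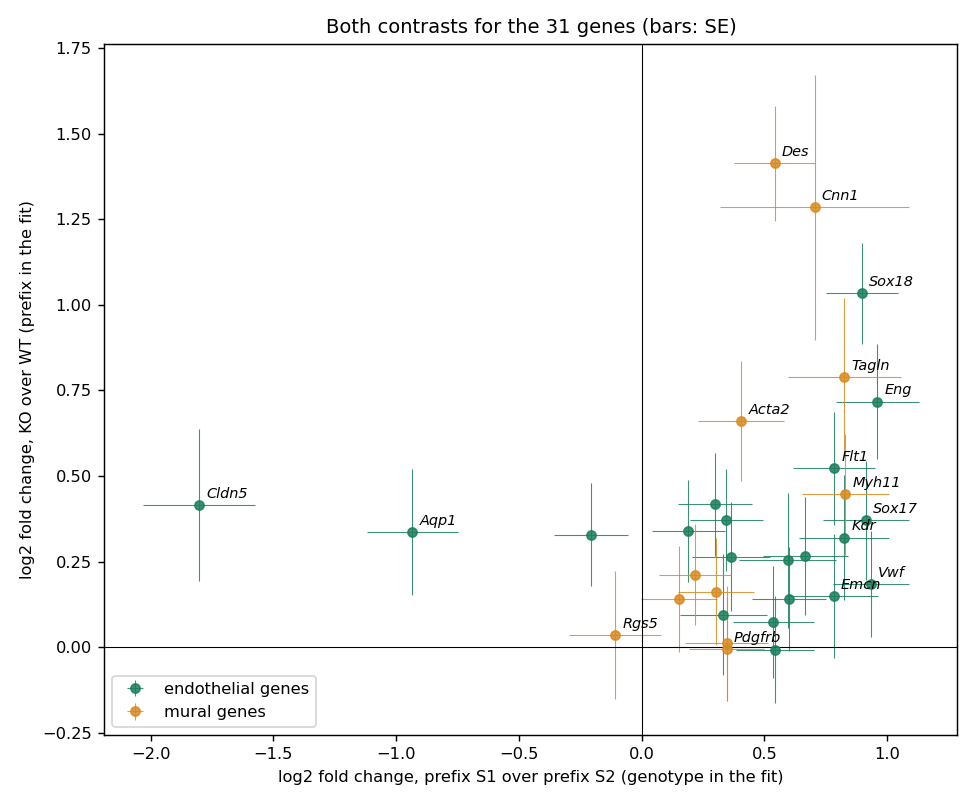
Log2 fold change of the 20 endothelial genes (green) and 11 mural genes (orange) in the joint fit, KO over WT (vertical axis) against prefix S1 over S2 (horizontal axis), with bars for the SE. Des, Cnn1 and Sox18 stand highest, with SEs of 0.17, 0.39 and 0.15, and Cldn5 and Aqp1 lie far to the left of the other genes.

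In the joint fit, though not with a sole term, more endothelial genes were called between the library name prefixes than between genotypes. With prefix as the sole term, edgeR called 1 of 15643 genes (0.00639%) and no member, while 13 of 20 endothelial genes and 2 of 11 mural genes (Myh11 and Pdgfrb) had an unadjusted p under 0.05, as did 2417 of all genes. In the joint fit, which called 3.14% of all genes (1.55% higher and 1.59% lower in S1), 7 endothelial genes rose in S1, 2 fell, and 1 mural gene rose. Over endothelial genes the median log2 fold change was 0.57 with 17 of 20 higher in S1, and over mural genes it was 0.35 with 10 of 11 higher, beside a median of 0.01 over all genes. Of all genes tested, 53.2% did not overlap between prefixes. With S1 higher, this held for 13 of 20 endothelial and 7 of 11 mural genes, beside 25.9% of all genes. With S1 lower, it held for Cldn5, Aqp1 and the mural gene Rgs5, beside 27.3% of all genes.

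Of the members that encode receptors for vascular growth factors, Kdr, Flt1 and the co-receptor gene Eng rose in S1. The Tie receptor genes and the mural gene Pdgfrb (0.35, adjusted p = 0.243, edgeR joint fit) did not pass. Kdr (ENSMUSG00000062960, chr5:75932827-75978458), the main signalling receptor for VEGF-A, had 389 and 278 CPM in KO 1 and the library labelled WT 2, both S1, against 196 and 176 CPM in KO 2 and the library labelled WT 1, both S2. Its joint log2 fold change was 0.83 ± 0.18 (± SE, adjusted p = 0.0413, edgeR). Flt1 had 236 and 183 CPM in the S1 libraries KO 1 and WT 2, against 153 and 95.3 CPM in the S2 libraries KO 2 and the library labelled WT 1 (0.78, adjusted p = 0.0353, edgeR joint fit). Eng had 265 and 180 CPM in KO 1 and WT 2, against 152 and 82.7 CPM in KO 2 and the library labelled WT 1 (0.96, adjusted p = 0.0167, edgeR joint fit). In all of these both S1 libraries lay above both S2 libraries. Tie1 had 145 and 125 CPM in KO 1 and WT 2, against 91.2 and 86.8 CPM in KO 2 and the library labelled WT 1 (0.60, adjusted p = 0.0631, edgeR joint fit), and Tek had a log2 fold change of 0.54 (adjusted p = 0.110).

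Among adhesion and secreted endothelial genes, Vwf and Emcn rose in S1. Vwf, a clotting protein that endothelial cells store, had 44.1 and 35.2 CPM in KO 1 and WT 2, against 20.9 and 20.4 CPM in KO 2 and the library labelled WT 1 (0.93, SE 0.16, adjusted p = 0.0126, edgeR joint fit). Emcn, the endomucin gene of capillary and venous endothelium, had 57.4 and 41.5 CPM in KO 1 and WT 2, against 26.7 and 30.1 CPM in KO 2 and the library labelled WT 1 (0.78, adjusted p = 0.0481, edgeR joint fit). Neither gene overlapped between prefixes. Cdh5 had 337 and 271 CPM in KO 1 and WT 2, against 206 and 176 CPM in KO 2 and the library labelled WT 1, and missed the threshold (0.67, adjusted p = 0.0692, edgeR joint fit). Pecam1 had 212 and 170 CPM in KO 1 and WT 2, against 159 and 137 CPM in KO 2 and the library labelled WT 1 (0.36, adjusted p = 0.241, edgeR joint fit). Plvap, at the low end, had 9.61 and 7.32 CPM in KO 1 and WT 2, against 5.76 and 5.35 CPM in KO 2 and the library labelled WT 1 (0.59, adjusted p = 0.136, edgeR joint fit). Egfl7 (0.30), Esam (0.19) and Nos3 (0.34) had joint log2 fold changes with edgeR adjusted p-values of 0.234 to 0.505.

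The SoxF genes Sox17 and Sox18 also rose in S1. Sox17 did so by 0.91 in the joint fit (SE 0.18, adjusted p = 0.0244, edgeR), with 20.0 and 13.3 CPM in KO 1 and WT 2, against 9.05 and 8.28 CPM in KO 2 and the library labelled WT 1, which did not overlap. Sox18 did so by 0.90 (SE 0.15, adjusted p = 0.0121, edgeR), with 41.9 and 20.3 CPM in KO 1 and WT 2, against 22.2 and 10.99 CPM in KO 2 and the library labelled WT 1. The Sox18 prefixes overlapped, since KO 2 lay above WT 2, and S1 was higher within each genotype. Sox7, whose prefix value was added after it was seen to complete the family, overlapped between prefixes and did not pass (0.62, SE 0.15, adjusted p = 0.0571, edgeR joint fit). Erg, an ETS family factor of endothelial identity, had a log2 fold change of 0.33 (adjusted p = 0.328), and Ptprb had 0.54 (adjusted p = 0.0968).

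Cldn5 and Aqp1 ran the other way. Cldn5 (ENSMUSG00000041378, chr16:18776847-18778262) encodes claudin-5, the tight junction protein of endothelium. It had 27.9 and 14.5 CPM in the S1 libraries KO 1 and WT 2, against 68.4 and 72.4 CPM in the S2 libraries KO 2 and the library labelled WT 1. Both S1 libraries lay far below both S2 libraries, and Cldn5 fell in S1 by 1.80 in log2 units (adjusted p = 0.00389, SE 0.23, edgeR joint fit). The difference was −1.29 between the KO libraries and −2.31 between the WT libraries. Aqp1 (ENSMUSG00000004655, chr6:55336432-55348555) had 267 and 218 CPM in KO 1 and WT 2, against 527 and 405 CPM in KO 2 and the library labelled WT 1, and fell by 0.93 in log2 units (adjusted p = 0.0275, SE 0.19, edgeR joint fit). Aqp1 is also made by red blood cells, whose list summed to 2028 and 1070 CPM in KO 1 and WT 2, against 908 and 1131 CPM in KO 2 and the library labelled WT 1, and their part in the result was not tested. Single transcripts, Cldn5-201 and Aqp1-201, held all of the TPM of these genes. Robo4, with −0.21 (adjusted p = 0.473), was the only other endothelial gene with a lower mean in S1.

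**Figure D3:**
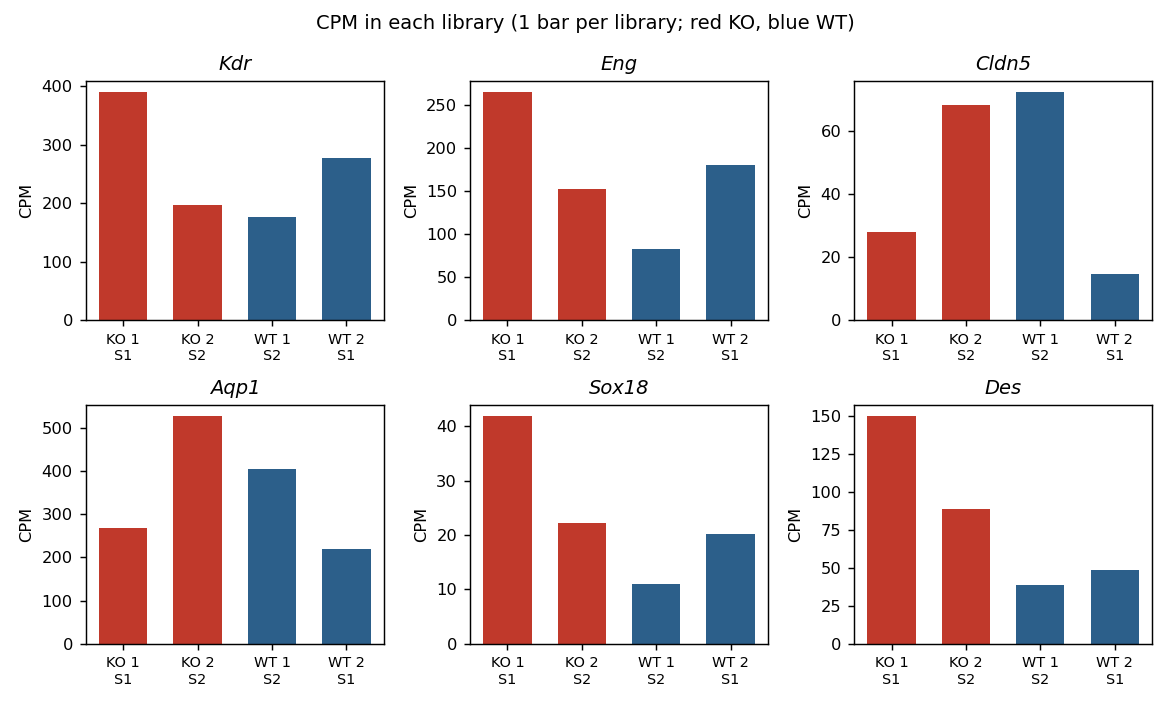
CPM of Kdr, Eng, Cldn5, Aqp1, Sox18 and Des, with 1 bar per library from an axis that starts at 0, red for KO and blue for WT, and the prefix under each library name. Kdr and Eng are high in the outer bars (prefix S1), Cldn5 and Aqp1 in the inner bars (prefix S2), and Des in the 2 KO bars.

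Among mural genes, Myh11 alone was called between prefixes (0.83, SE 0.18, adjusted p = 0.0360, edgeR joint fit), with 54.3 and 32.4 CPM in the S1 libraries KO 1 and WT 2, against 24.8 and 22.5 CPM in the S2 libraries KO 2 and the library labelled WT 1. Tagln had 38.0 and 15.1 CPM in KO 1 and WT 2, against 14.6 and 12.6 CPM in KO 2 and the library labelled WT 1, so the prefixes did not overlap but WT 2 lay close to KO 2 (0.83, adjusted p = 0.0863, edgeR joint fit). The prefix differences of Tagln were 1.37 between the KO libraries and 0.26 between the WT libraries. The other contractile and filament genes overlapped between prefixes or missed the threshold, with 0.41 for Acta2, 0.70 for Cnn1 and 0.54 for Des (adjusted p = 0.110 to 0.339, edgeR joint fit). The genes Pdgfrb (0.35), Notch3 (0.35), Abcc9 (0.30), Kcnj8 (0.22) and Mylk (0.15) had positive log2 fold changes in the joint fit, and Rgs5 had −0.11, with edgeR adjusted p-values of 0.243 to 0.792. Rgs5 had 403 and 395 CPM in KO 1 and WT 2, against 436 and 424 CPM in KO 2 and the library labelled WT 1.

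Promoter sequence is shown for the 6 endothelial genes that were called between prefixes and have an entry in the RefSeq promoter table, since 4 of them were higher and 2 lower in S1. Each run is the 250 bases before the annotated start in GRCm38.p6, 5′ to 3′. Capitals mark AGGAAG or its reverse complement CTTCCT, an exact form of the motif bound by ETS factors such as the product of Erg. Other forms of that motif were not searched or marked.
Kdr promoter (chr5:75978456-75978705, minus strand): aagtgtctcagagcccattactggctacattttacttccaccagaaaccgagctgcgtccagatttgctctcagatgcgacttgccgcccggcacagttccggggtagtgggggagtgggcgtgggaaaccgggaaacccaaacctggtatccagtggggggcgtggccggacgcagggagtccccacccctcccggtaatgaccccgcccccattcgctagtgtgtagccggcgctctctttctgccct
Flt1 promoter (chr5:147726012-147726261, minus strand): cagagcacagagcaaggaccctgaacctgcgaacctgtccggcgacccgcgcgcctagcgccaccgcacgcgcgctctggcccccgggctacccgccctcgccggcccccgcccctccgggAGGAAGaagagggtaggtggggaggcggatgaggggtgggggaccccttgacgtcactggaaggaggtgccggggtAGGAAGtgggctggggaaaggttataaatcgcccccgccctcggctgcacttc
Eng promoter (chr2:32646345-32646594, plus strand): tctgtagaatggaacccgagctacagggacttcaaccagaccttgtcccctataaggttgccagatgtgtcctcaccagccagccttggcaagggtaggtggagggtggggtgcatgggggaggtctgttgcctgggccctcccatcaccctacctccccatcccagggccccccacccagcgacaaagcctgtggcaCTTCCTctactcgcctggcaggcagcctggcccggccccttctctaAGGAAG
Emcn promoter (chr3:137340828-137341077, plus strand): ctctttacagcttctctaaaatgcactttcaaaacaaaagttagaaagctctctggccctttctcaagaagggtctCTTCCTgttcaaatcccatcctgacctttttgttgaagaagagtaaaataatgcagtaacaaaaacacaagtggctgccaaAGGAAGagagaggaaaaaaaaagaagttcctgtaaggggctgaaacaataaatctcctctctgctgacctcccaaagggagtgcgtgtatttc
Cldn5 promoter (chr16:18776597-18776846, plus strand): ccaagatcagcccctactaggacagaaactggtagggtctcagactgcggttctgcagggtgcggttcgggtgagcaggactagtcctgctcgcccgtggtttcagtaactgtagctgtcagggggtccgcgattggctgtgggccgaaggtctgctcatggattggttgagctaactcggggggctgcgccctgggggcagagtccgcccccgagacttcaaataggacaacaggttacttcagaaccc
Aqp1 promoter (chr6:55336049-55336298, plus strand): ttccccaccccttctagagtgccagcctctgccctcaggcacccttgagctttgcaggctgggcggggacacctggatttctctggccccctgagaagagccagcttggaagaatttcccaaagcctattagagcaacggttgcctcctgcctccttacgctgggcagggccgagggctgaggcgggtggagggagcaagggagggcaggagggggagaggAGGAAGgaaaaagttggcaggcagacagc
Flt1, Eng and Emcn had 2 matches each, Aqp1 had 1, and Kdr and Cldn5 had none, so matches occurred on both sides of the prefix difference. AGGAAG, searched on both strands, was present in 7 of 11 endothelial promoters (63.6%) and 0 of 8 mural promoters. Among the 32851 promoters of the table it was present in 29.5%. The CArG box of serum response factor, the motif for which smooth muscle contractile genes are known, was searched only as CCWWWWWWGG (W for A or T). That exact form was found in 0 of these 19 promoters and in 1.47% of all. Other forms of the CArG box were not searched, so the count does not show that these promoters lack one. Where a gene had several starts, the first listed was used. A match describes letters in the window and not a bound site.

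Other vascular lists give the setting of these genes. Among 18 ligands of vessel growth, none was called between genotypes and 4 rose in S1 in the joint fit, which called 1.55% of all genes in that direction. Efnb2, the arterial ephrin gene, had 44.1 and 29.2 CPM in the S1 libraries KO 1 and WT 2, against 15.3 and 14.0 CPM in the S2 libraries KO 2 and the library labelled WT 1 (1.30, SE 0.17, adjusted p = 0.00414, edgeR). Fgf2 (0.92, adjusted p = 0.0413, edgeR) and the Notch ligand gene Jag1 (0.64, adjusted p = 0.0472, edgeR) rose as well. The list's median was −0.06 between prefixes, near that of all genes. Of the genotype contrast, Jag2, another Notch ligand gene, had 43.3 and 36.3 CPM in KO 1 and KO 2, against 19.1 and 31.1 CPM in the libraries labelled WT 1 and WT 2 (0.70, adjusted p = 0.0708, edgeR joint fit).

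Of 18 further receptors and Notch targets, none was called between genotypes, where the joint fit called 2.05% of all genes. In the joint fit 4 rose in S1, beside 1.55% of all genes. The prefix median of the list was 0.36, and 11 of 18 did not overlap with S1 higher, beside 25.9% of all genes. The apelin receptor gene Aplnr had 44.3 and 30.6 CPM in KO 1 and WT 2, against 16.5 and 15.9 CPM in KO 2 and the library labelled WT 1 (1.18, adjusted p = 0.00682, edgeR joint fit). Hey1, a Notch target, had a log2 fold change of 0.89 (adjusted p = 0.0286, edgeR joint fit). Flt4, the VEGF-C receptor gene, had 22.5 and 17.1 CPM in KO 1 and WT 2, against 14.0 and 8.79 CPM in KO 2 and the library labelled WT 1 (0.82, adjusted p = 0.0241, edgeR joint fit).

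By vessel type, 4 of 10 arterial genes rose in S1 in the joint fit (Gja4, Efnb2, Unc5b and Hey1, of which Efnb2 and Hey1 are also in the lists above), 9 of 10 had prefixes that did not overlap with S1 higher, and the median was 0.73. Of all genes tested, 1.55% rose in S1 in that fit, 1.59% fell and 25.9% did not overlap with S1 higher. Gja4, a connexin of arterial endothelium, had 9.69 and 6.04 CPM in KO 1 and WT 2, against 2.47 and 2.33 CPM in KO 2 and the library labelled WT 1 (1.68, SE 0.25, adjusted p = 0.00831, edgeR). Of 8 venous genes 1 rose, the ephrin receptor gene Ephb4 (0.68, adjusted p = 0.0418, edgeR joint fit), and the median was 0.45. Of 6 lymphatic genes tested out of 8, Flt4 rose, and the list summed to only 17.3 to 32.3 CPM. Of 10 genes of capillary lipid handling, Cd300lg rose in S1, with 263 and 195 CPM in KO 1 and WT 2, against 123 and 107 CPM in KO 2 and the library labelled WT 1 (0.98, adjusted p = 0.0127, edgeR joint fit). Gpihbp1, which anchors lipoprotein lipase on capillaries, had 137 and 101 CPM in KO 1 and KO 2, against 81.0 and 99.9 CPM in the libraries labelled WT 1 and WT 2 (0.39, adjusted p = 0.422, edgeR joint fit). No gene of the arterial, venous, lymphatic or lipid handling lists was called between genotypes.

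Of the 18 further endothelial genes, 3 rose in S1 in the joint fit, beside 1.55% of all genes. With prefix alone 16 had a positive value, beside 51.6% of all genes, and the median was 0.44. Clec14a, a C-type lectin gene of vessel growth, had 28.4 and 18.3 CPM in KO 1 and WT 2, against 10.8 and 9.56 CPM in KO 2 and the library labelled WT 1 (1.17, adjusted p = 0.00724, edgeR joint fit), and its binding partner gene Mmrn2 had 0.66 (adjusted p = 0.0445, edgeR joint fit). None of the 12 further pericyte genes and none of 13 further smooth muscle genes was called between prefixes. Of the pericyte genes, 9 had a positive value and 3 a negative one, with a median of 0.22. Mcam, an adhesion gene shared by pericytes and endothelium, had 50.0 and 66.2 CPM in KO 1 and WT 2, against 73.4 and 94.9 CPM in KO 2 and the library labelled WT 1 (−0.54, adjusted p = 0.0849, edgeR joint fit). Of 11 macrophage genes tested, 5 fell in S1 in the joint fit, beside 1.59% of all genes, with list sums of 110 and 284 CPM in KO 1 and WT 2, against 336 and 410 CPM in KO 2 and the library labelled WT 1; the part of these cells in the prefix difference was not tested.

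**Figure D4:**
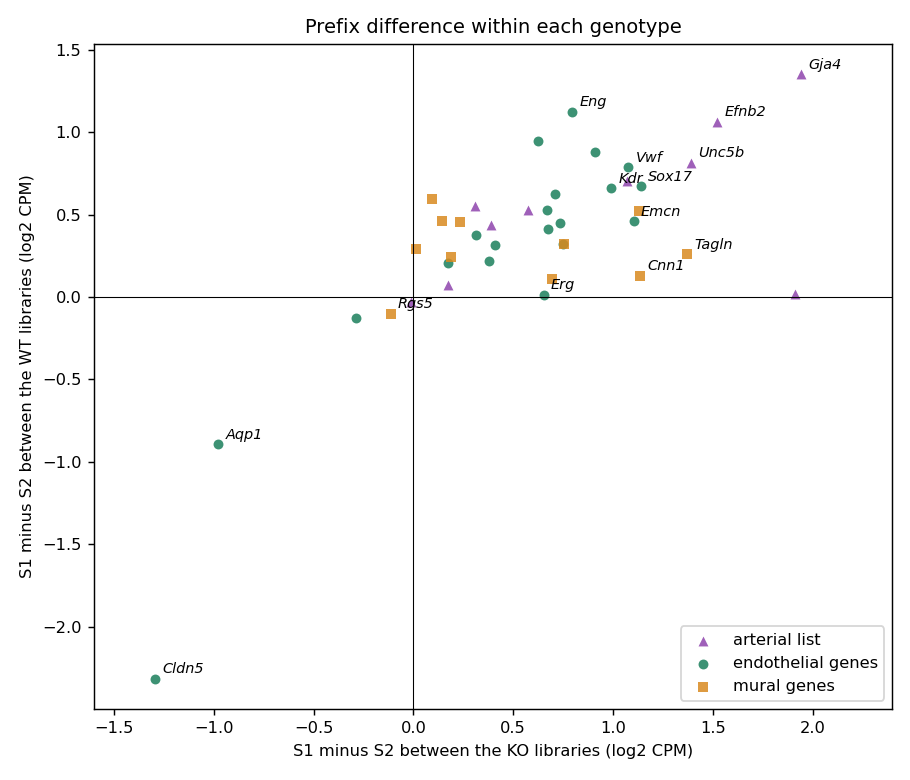
Difference in log2 CPM between prefixes S1 and S2 within the KO libraries (horizontal axis) and within the WT libraries (vertical axis) for endothelial genes (green), mural genes (orange) and the arterial list (purple triangles). Most points lie in the upper right, among them Gja4 (1.94 and 1.35), and Cldn5 (−1.29 and −2.31) and Aqp1 (−0.98 and −0.89) in the lower left.

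The prefix direction was the same between the KO libraries and between the WT libraries for all 20 endothelial genes, 17 higher and 3 lower in S1, and for all 11 mural genes, 10 higher and 1 lower. Among all genes tested, 67.9% had the same direction in both genotypes, and 33.6% were higher in S1 in both. The medians were 0.67 between the KO libraries and 0.43 between the WT libraries for endothelial genes, and 0.23 and 0.29 for mural genes. Erg was an uneven case, with 0.65 between the KO libraries and 0.01 between the WT libraries. Without the library labelled WT 1 the medians over the libraries left were 0.50 for endothelial and 0.21 for mural genes, and without KO 1 they were 0.39 and 0.14, against 0.57 and 0.35 with all libraries. With prefix as the sole term edgeR called no member with all libraries, so leaving out the library labelled WT 1 had no call to remove. Of the genes called in the joint fit, some had a log2 fold change in the fit with prefix alone that moved by over 1.5 times when 1 library was left out. These were Sox18 (0.90, against 0.28 without KO 1, 0.47 without the library labelled WT 1 and 1.49 without KO 2), Eng (0.92, against 0.61, 0.54 and 1.42 with the same libraries left out), Sox17 (0.94, against 0.61 without KO 1) and Myh11 (0.87, against 0.45 without KO 1). Without the library labelled WT 1, Flt1 had 0.44 against 0.75, and of the other lists Flt4 had 0.50 against 0.80 and Ephb4 had 0.39 against 0.67, the last with 0.42 without KO 1.

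The endothelial genes were set against the mural genes within each library, where the scaling between libraries drops out. The mean log2 CPM was 6.35 and 5.87 over endothelial genes in KO 1 and KO 2, against 5.64 and 5.92 in the libraries labelled WT 1 and WT 2. The mean over mural genes was 5.68 and 5.17 in KO 1 and KO 2, against 4.82 and 5.12 in the libraries labelled WT 1 and WT 2. The difference, endothelial minus mural, was 0.66 and 0.70 in KO 1 and KO 2, against 0.82 and 0.80 in the libraries labelled WT 1 and WT 2. It was lower by 0.13 in KO on average, with −0.14 within S1 and −0.12 within S2. Without Des and Aqp1, 2 genes that other cells also make, the difference between genotypes was −0.03. KO 1 and KO 2 then had 0.73 and 0.66 and the libraries labelled WT 1 and WT 2 had 0.70 and 0.75, which overlapped. Acta2, whose level is uncertain, was kept, and whether other cells make the genes kept was not examined. Between prefixes, endothelial minus mural differed by −0.03 with all 31 genes and by 0.06 without Des and Aqp1.

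**Figure D5:**
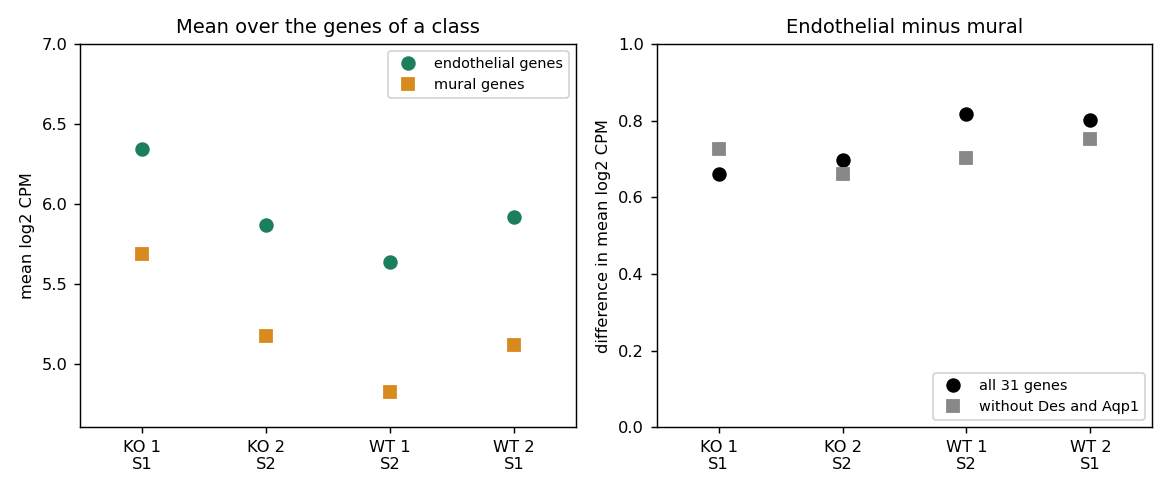
Left, mean log2 CPM over the 20 endothelial genes (circles) and 11 mural genes (squares) in each library; right, endothelial minus mural with all 31 genes (black) and without Des and Aqp1 (grey). Both class means are highest in KO 1 and lowest in the library labelled WT 1, and the grey differences of KO and WT overlap.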

How the data were processed

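TRIzol extraction, RNeasy purification and a TruSeq kit that keeps strand were used, per the labels' protocols. Per the submitters' processing notes, kallisto 0.45.0 and mm10 were used. The sources used here do not give the transcript set, the strand setting or trimming. An estimated count and a TPM value were deposited by the authors for each of 141450 transcripts, per the file headers, and 87.4 to 88.5% of non-zero estimated counts were not whole numbers. Both were summed per gene with GENCODE vM21 (GRCm38), which matched 97.7% of transcripts; the 3259 others held 0.992 to 1.04% of counts and were left out.

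Rounded gene counts were tested by quasi-likelihood (edgeR 4.0.16, R 4.3.3, TMM, filterByExpr with minimum count 10 and total 15, Benjamini-Hochberg adjustment over all genes tested, threshold 0.05). Genotype or prefix was the sole term, and the joint fit had both. The log2 CPM values used a prior count of 2. Alternative fits used DESeq2 1.42.0, limma 3.58.1 and other filters, scalings and samples. The code was tested on simulated counts with genotype or prefix as the sole term, and the joint fit was not simulated. The members and lists were chosen with earlier results of these data known. Library values were named for members called in either fit, for non-overlapping members of at least 1.5-fold and for the most abundant 5 of each class, and up to 3 genes of each other list by p. The deviations from the genotype means correlated at 0.38 between libraries of the same prefix, over 15643 genes. With 2 libraries per genotype these deviations mirror each other, so the value of −0.38 for the same replicate number follows from the first.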

Additional observations from a re-analysis of the deposited data

Results flagged for a closer look

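For 7 of the 31 genes, the KO and WT libraries differed in opposite directions in the 2 prefixes, beside 48.0% of all genes tested. With 1 library per genotype in each prefix, the difference between prefixes was not tested. Values are KO minus WT in log2 CPM. Among endothelial genes, Tek had 0.29 within S1 and −0.14 within S2, Emcn had 0.47 and −0.18, Cldn5 had 0.94 and −0.08, Erg had 0.41 and −0.23, and Ptprb had 0.13 and −0.14, in the same order. Among mural genes, Pdgfrb had −0.12 within S1 and 0.11 within S2, and Notch3 had −0.24 and 0.26.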

How the results depend on the processing

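Between KO and WT, 122 genes were called with genotype alone in edgeR. The number was 457 with no filter on low counts, 218 by DESeq2, 76 by limma on log2(TPM + 1), 74 on log2(TPM + 0.1) and 320 in the joint fit. It was 164 with the replicate number as a block and 158 to 235 when each library was left out in turn, with 16229 to 16597 genes tested then. Between prefixes, 1 gene was called with prefix alone in edgeR, 823 with no filter, 548 by DESeq2 and 491 in the joint fit. Calls numbered 0 by limma-voom (2394 genes at an unadjusted p under 0.05), 0 with the replicate number as a block (1912 genes at an unadjusted p under 0.05) and 0 to 1 with a library left out. The cause of these shifts was not tested. Between prefixes, DESeq2 called 9 endothelial genes and 1 mural gene. Whether the replicate numbers pair the libraries was not tested, and the block by replicate number called no member in either contrast.

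The endothelial median between KO and WT ranged from −0.032 (without KO 1) to 0.54 when a library was left out. Endothelial minus mural, KO against WT, was −0.035 without Des and Aqp1 and −0.073 on the log2(TPM + 1) scale, beside −0.13. Besides the joint fit, Des was called between KO and WT by DESeq2 (adjusted p = 0.000635), with no filter and without KO 2 (adjusted p = 0.0141, edgeR). Sox18 was called with no filter and without WT 2 (adjusted p = 0.0312, edgeR), and Tagln with no filter and without KO 2 (1.44, adjusted p = 0.0244, edgeR), while without KO 1 Tagln had 0.082 against 0.92 with all libraries. Tpm1 lost its call with the replicate block (adjusted p = 0.0834), without the skeletal muscle list (0.0545), without WT 1 (0.151) and without WT 2 (0.254), all by edgeR.

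No named gene changed direction between prefixes except with a library left out: Acta2 then ranged from −0.089 to 0.86, Cnn1 from −0.27 to 1.49 and Des from −0.40 to 1.35. Between KO and WT, small values changed sign. Notch3 was 0.017 by limma-voom, 0.012 with the replicate block and 0.011 in the joint fit. Tek was −0.060 and Rgs5 −0.074 on log2(TPM + 1), and they were −0.066 and −0.075 on log2(TPM + 0.1). Ptprb was −0.11 and −0.12 on these scales, −0.00698 with the replicate block and −0.00665 in the joint fit. With each library left out in turn, the lowest and highest log2 fold changes were −0.12 and 0.62 for Cdh5, −0.21 and 0.77 for Kdr, −0.31 and 0.43 for Tek, −0.21 and 0.44 for Tie1, −0.42 and 0.67 for Emcn and −0.41 and 0.67 for Vwf. They were −0.65 and 1.73 for Cldn5, −0.14 and 0.59 for Plvap, −0.25 and 0.88 for Sox17, −0.23 and 0.41 for Erg, −0.36 and 0.31 for Ptprb and −0.23 and 0.87 for Aqp1. Among mural genes they were −0.14 and 0.97 for Myh11, −0.030 and 0.10 for Rgs5, −0.23 and 0.23 for Pdgfrb, −0.28 and 0.31 for Notch3, −0.00399 and 0.28 for Mylk and −0.066 and 0.39 for Abcc9.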
